A study of Homo sapiens with 4 samples.

Results

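Loci that ended at exactly 2 poly(A) sites, lying 5001 to 10000 nt apart on 1 strand, were followed through 4 HEK293 libraries. HEK293 is a line derived from human embryonic kidney. Sites were built from the pooled libraries on chromosomes 1 to 22 and X: on each strand the position with the most reads took all positions within 25 nt. Sites averaging 1 RPM or more over the libraries were kept (RPM is the read number scaled by the library total), and a locus was the most used site with every site of that strand up to 10 kb away. Within a locus, only sites with at least 5% of its mean RPM counted, and at least 50 reads over both sites were required in every library. Members were thus chosen by measured values, namely read positions, RPM, site share and read number in these same libraries. The steps left 354 loci out of 18156, of 6561 with at least 2 such sites, and of the 4793 whose 2 most used sites had enough reads to be tested. The read minimum had removed 193 of 547 wide pairs. Just inside the limits, the shortest distance was 5015 nt, the smallest read number 50, the weakest site held 5.03% of its locus and the lowest site mean was 1.0 RPM. Just outside, the longest distance of a 2-site locus was 5000 nt and the largest read number 49. The median distance of the members was 7238 nt, and its quartiles were 5947 and 8716 nt.

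The study profiled transcript 3′ ends with A-seq, in which an anchored oligo-dT primer starts at the junction of a transcript and its poly(A) tail, so that a read end marks a cleavage position. Each of the 4 groups was 1 library: cells without any siRNA (untreated cells below), cells with a scrambled control siRNA, cells with an siRNA against CstF-64 and cells with an siRNA against CF Im 68. All 3 siRNA groups were transfected with a lipid reagent and harvested after 3 days, and each depletion rested on a single siRNA. No group had a replicate, so each test compares 2 libraries and not 2 conditions. The labels name the depleted proteins by their size-based names, and the transcripts that encode them were not analysed here.

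A pre-mRNA is cut and polyadenylated where the cleavage machinery recognises signals around the site. CF Im, of which CF Im 68 is the larger subunit, binds UGUA motifs upstream of the cut, and CstF-64 is the subunit of the cleavage stimulation factor that binds U-rich or GU-rich sequence downstream of it. When several ends are used, the transcript is longer or shorter: the ends may lie in 1 long 3′ untranslated region, in an intron and a last exon, or in neighbouring genes on the same strand. No gene annotation of hg19 was used here, and with ends this far apart a locus can hold more than 1 gene. A change in the use of 2 ends of 1 gene and a change in the output of neighbouring genes therefore cannot be told apart in the values below.

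The labels give 1 strand of each depleting siRNA, shown because these oligonucleotides define the comparisons. Capitals mark the 19 named bases of 21, and n stands for a base that the label leaves unnamed.
CF Im 68 siRNA: nnGACCGAGAUUACAUGGAUA
CstF-64 siRNA: nnCCUGAAUGGGCGCGAAUUC

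Read totals were 15806975 in untreated cells, 13443454 with control siRNA, 7343112 after CstF-64 depletion and 12792623 after CF Im 68 depletion. The members held 2.74 to 2.90% of the reads of a library. The pair reads of a member had a median of 448.5 in untreated cells, 425.5 with control siRNA, 201 after CstF-64 depletion and 427 after CF Im 68 depletion. The exact 95% interval (Clopper-Pearson) of a 50% share runs from 35.5 to 64.5% for a pair of 50 reads. All such intervals of a member's share cover counting error only, since no molecular identifiers separated copies of 1 fragment.

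The wide pairs were spread over both strands, 173 on the plus and the others on the minus strand. Chromosome 1 held 48 of them, chromosome 17 held 36 and chromosome 19 held 35. Chromosomes 17 and 19 had 10.2% and 9.89% of the members, beside 6.26% and 5.22% of all tested loci, a difference that was not tested. A site was seldom a single position: the median member had 11 read positions at each end, and its most read position carried a median of 66.8% of the reads at the proximal site and 68.0% at the distal site. The proximal site is the one nearer the 5′ side of the transcript. The distal site had more positions in 177 members and the proximal site in 166. Few reads lay between the ends: the median member had 1.98% of the same-strand reads of its span there. This is partly set by the choice of members, which kept any further site of the locus under 5% of its mean RPM. In 61 members a further same-strand site of at least 1 RPM lay between the ends. An opposite-strand site of at least 1 RPM lay between the ends in 63 members.

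Use of the 2 ends was described by the proximal share, the percentage of pair reads at the proximal site. The median share was 47.4% in untreated cells, 47.6% with control siRNA, 48.1% after CstF-64 depletion and 49.4% after CF Im 68 depletion. In the pooled controls the proximal site was the more used one in 169 members and the distal site was used as much or more in 185, and only 117 had a share between 25 and 75%. The wide pairs as a class thus favoured neither end, and most of them had 1 dominant end. Over the 4 libraries the share of a member ranged over a median of 12 points (percentage points of the share), with quartiles at 7.16 and 19.8 points. It stayed within 5 points in 41 members and spanned at least 20 points in 87.

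**Figure D1:**
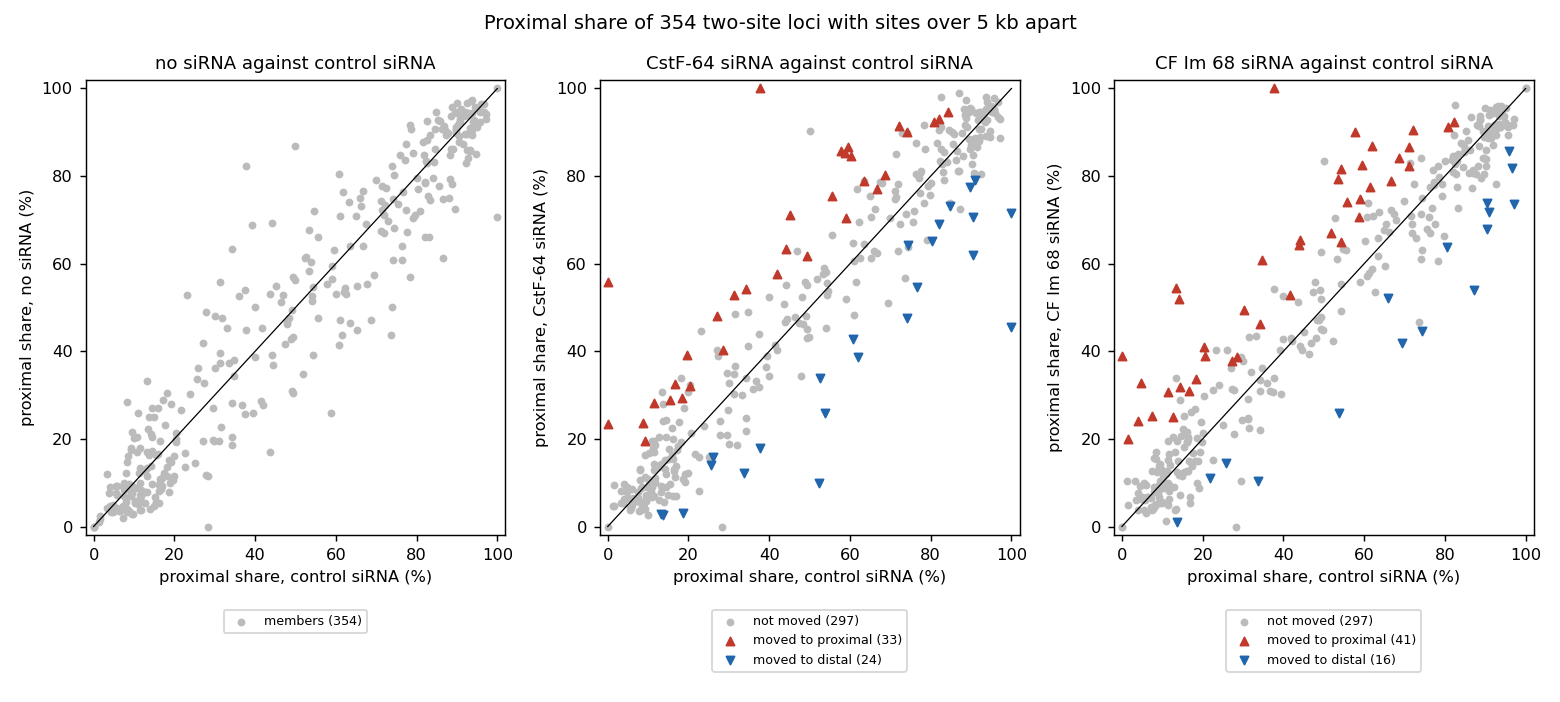
Proximal share of the 354 members in each library (vertical axes, percent) against the control siRNA library (horizontal axes, percent), 1 point per member. Triangles mark members that moved by the rule of the text; after CF Im 68 depletion 41 lay above and 16 below the line of equal shares, and after CstF-64 depletion 33 and 24.

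The members with the smallest range, which were chosen for it, are given as examples of both ends in use. The minus-strand pair of chromosome 9 with sites at 131492076 and 131483151 had proximal shares of 47.7% in untreated cells, 48.3% with control siRNA, 46.2% after CstF-64 depletion and 47.1% after CF Im 68 depletion. With more reads, the minus-strand pair on chromosome 17 at 73269074 and 73262313 had 64%, 63.5%, 64.4% and 61.7%, over 1638 to 2655 pair reads per library. Both ends of these loci were in use in every library. At the other extreme of use, the minus-strand pair on chromosome 14 at 21975979 and 21966290 had shares of only 4.46%, 4.91%, 6.54% and 6.85% in the same order.

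The 2 control libraries differed from each other at many wide pairs, which sets the scale for everything below. By the rule for 2 libraries (two-sided Fisher's exact test with Benjamini-Hochberg adjustment over all 4793 tested loci, adjusted p below 0.05, and a difference of at least 10 points), the share was larger with control siRNA than in untreated cells in 41 members, or 11.6%, beside 10.6% of all tested loci. It was smaller in 31 members, or 8.76%, beside 11.1%. The median absolute difference between the controls was 5.78 points in the members, 5.01 points in all tested loci and 4.05 points in 2-site loci with ends 1001 to 5000 nt apart. The members' differences between the controls were thus about as frequent as those of the whole table.

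The largest difference between the controls came from the minus-strand pair on chromosome 1 at 247003845 and 246997776. Its distal site was a single position with 20 reads in untreated cells, 272 with control siRNA and none after either depletion, and the proximal share was 82.3%, 37.8%, 100% and 100% in the usual order of libraries, so that the pair counted as moved to the proximal end after both depletions. With 0 distal reads of 95 pair reads after CstF-64 depletion and of 209 after CF Im 68 depletion, distal shares of up to 3.16% and 1.44% are allowed by 3 counts. A minus-strand pair on chromosome 5 at 138732458 and 138726287 had 86.9% in untreated cells, 50% with control siRNA, 90.3% after CstF-64 depletion and 83.4% after CF Im 68 depletion, so that the control siRNA library alone was low. On chromosome 11, the plus-strand pair at 93455039 and 93463523 had 52.8%, 23.2%, 44.6% and 40.2%. In the following, a member was called moved only if it differed from control siRNA by the rule above and also lay 10 points or more to the same side of the library of untreated cells.

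After CF Im 68 depletion, 41 of the 354 wide pairs moved to the proximal end and 16 to the distal end. The 41 made up 11.6% of the members (exact 95% interval 8.44 to 15.4%), and 24.2% of all tested loci moved that way. The 16 made up 4.52% (2.61 to 7.24%), beside 2.63% of all tested loci. Intervals over members, here and for the medians below, treat loci as independent and do not cover variation between libraries. They describe the members and are no test against all tested loci. Over all members the median change against control siRNA was 0.537 points (95% order-statistic interval -0.577 to 1.21), with a larger share in 185 and a smaller one in 165; the median of all tested loci was 4.84 points. Against the library of untreated cells the median was 1.61 points (0 to 2.58), and over all tested loci it was 5.23 points. The median absolute change against control siRNA was 4.40 points, no larger than the 5.78 points between the controls, and the members that moved did so in both directions. Where no library had under 200 pair reads (173 members), 18 (10.4%) moved to the proximal end, beside 21.5% of all tested loci at that limit, and 3 (1.73%) the other way, beside 1.80%.

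Pairs with nearer ends gave other percentages. Among the 979 tested 2-site loci with ends 1001 to 5000 nt apart, 290 (29.6%) moved to the proximal end after CF Im 68 depletion and 26 (2.66%) to the distal end, with a median change of 5.54 points against control siRNA. At 201 to 1000 nt the counts were 141 (20.4%) and 13 (1.88%) of 692, and at 26 to 200 nt they were 36 (6.45%) and 5 (0.896%) of 558. The wide pairs thus lay below both middle classes and above the nearest pairs in moves to the proximal end. These shares are descriptions, with no test of one distance class against another, because loci of 1 library are not replicates. Within the members, 15 of 94 pairs with ends 5001 to 6000 nt apart moved to the proximal end, 11 of 66 at 6001 to 7000 nt, 5 of 68 at 7001 to 8000 nt, 2 of 59 at 8001 to 9000 nt and 8 of 67 at 9001 to 10000 nt. The lower counts thus lay above 7000 nt, without a steady fall. The limit on site use mattered to the count: with sites of at least 10% of locus reads, 66 of 344 wide pairs (19.2%) moved to the proximal end, beside 27.3% of all tested loci.

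**Figure D2:**
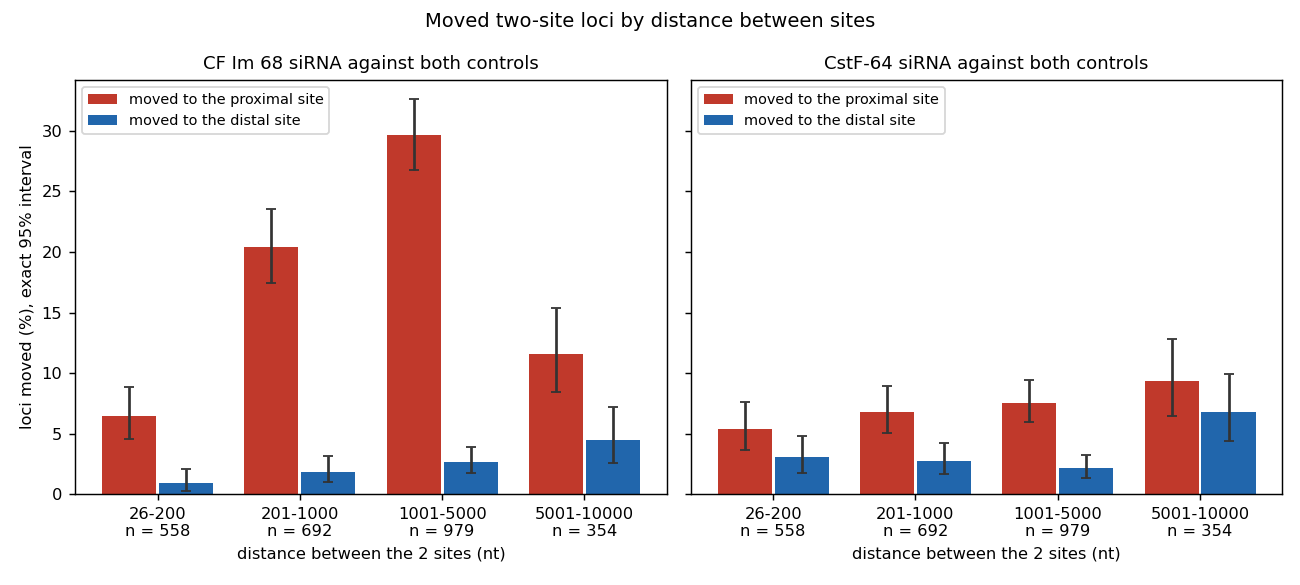
Percentage of tested 2-site loci that moved to the proximal or the distal site (bars from 0, with exact 95% intervals that treat loci as independent) by distance between the ends in nt, for each depletion against both controls. After CF Im 68 depletion moves to the proximal end reached 29.6% at 1001 to 5000 nt and 11.6% in the members, and after CstF-64 depletion they were 7.56% and 9.32%.

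The members were also split by their share in the pooled controls. Among members with a control share of 0 to 25%, 17 of 133 (12.8%) moved to the proximal end after CF Im 68 depletion, and among pairs 1001 to 5000 nt apart with such a share 187 of 418 (44.7%) did. At 25 to 50% the counts were 8 of 52 (15.4%) and 57 of 133 (42.9%), and at 50 to 75% they were 14 of 65 (21.5%) and 38 of 139 (27.3%). The wide pairs had the lower percentage in each of these classes. Above 75%, where little room is left for a rise, 2 of 104 members (1.92%) moved to the proximal end and 8 (7.69%) moved the other way. Among pairs 1001 to 5000 nt apart with such a share, 8 of 289 (2.77%) and 10 (3.46%) did. No share of all tested loci is available for these classes, and the differences were not tested.

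Members were further split by the reads between their ends. Under 1% of span reads between the ends, 10 of 127 members (7.87%) moved to the proximal end after CF Im 68 depletion. At 1 to 5% the count was 13 of 133 (9.77%). At 5% or more it was 18 of 94 (19.1%), the highest percentage of the classes, in a comparison that was not tested. Moves to the distal end were 5.51%, 2.26% and 6.38% of the classes in this order. The last class had the fewest reads, with a median of 112.5 pair reads in a member's lowest library, beside 332 and 175. Its median change against control siRNA was also the smallest, 0.113 points, beside 0.254 and 1.20 points. Where an opposite-strand site of at least 1 RPM lay between the ends, 3 of 63 members moved to the proximal end and 4 to the distal end, beside 38 and 12 of the 291 others. These splits were made in the members only, with no share of all tested loci beside them. Whether these features mark pairs within 1 gene was not tested. Among members with no further same-strand site of at least 1% of locus reads between the ends, 14 (7.65% of them) moved to the proximal end and 7 (3.83%) the other way, beside 24.2% and 2.63% of all tested loci.

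By the smaller of its changes against the controls, the member with the largest move to the proximal end lay on the plus strand of chromosome 22, with ends at 26118637 and 26125257. Its proximal share was 7.97% in untreated cells, 13.3% with control siRNA, 14.3% after CstF-64 depletion and 54.5% (50 to 58.9%) after CF Im 68 depletion, the last alone far above the others (adjusted p = 7.33e-27 against control siRNA, Fisher's exact test). The proximal site had 2.34, 2.31, 2.72 and 20.9 RPM and the distal site 27.0, 15, 16.3 and 17.5 RPM in the same order, so the proximal end was high in this library and the distal end was not low beside control siRNA. Reads between the ends made up 21.8% of the reads of its span.

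A minus-strand pair on chromosome 12, at 24970591 and 24964297, followed the same pattern with more reads. Its shares were 13.9% in untreated cells, 14.2% with control siRNA, 15.2% after CstF-64 depletion and 51.8% (48.8 to 54.9%) after CF Im 68 depletion (adjusted p = 2.48e-58, Fisher's exact test). Proximal RPM was 11.9, 6.99, 7.22 and 42.9 in the same order, and distal RPM was 73.6, 42.4, 40.2 and 39.9, so that the distal end was lower than in untreated cells. On the plus strand of chromosome 12, the pair at 4409378 and 4414517 had shares of 4.84%, 4.71%, 8.96% and 32.7%. Its proximal site had 5.38, 6.77, 4.36 and 69.5 RPM, and its distal site had 106, 137, 44.3 and 143 RPM. In the last pair the rare proximal end met the site limits only through the depleted libraries: with sites chosen on the controls alone this locus was no member, so its high share was part of how it was chosen. The pairs on chromosome 22 and on the minus strand of chromosome 12 remained members under that choice.

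Other pairs started from a more even balance. On the X chromosome, the plus-strand pair at 84342774 and 84348320 had 54.7% in untreated cells, 54.3% with control siRNA, 52.9% after CstF-64 depletion and 81.6% after CF Im 68 depletion. At 98718656 and 98724199 on chromosome 10 (plus strand) the shares were 34.4%, 34.7%, 48.9% and 60.9%. The minus-strand pair of chromosome 1 at 149821830 and 149816058 had 19.2%, 20.5%, 21.4% and 39.0%, over only 56 to 151 pair reads. In the first and last of these the CF Im 68 siRNA library alone stood apart, and in the chromosome 10 pair the CstF-64 siRNA library lay between it and the controls.

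One of the 2 widest pairs, 9983 nt on the plus strand of chromosome 7 at 138982999 and 138992982, also moved. Its proximal share was 1.74% in untreated cells, 1.55% with control siRNA, 4.60% after CstF-64 depletion and 20.0% (14.7 to 26.2%) after CF Im 68 depletion. With only 0.190 and 0.223 RPM in the controls, its proximal site met the limit of 1 RPM through the depleted libraries. A minus-strand pair of the same width on chromosome 14, at 103398717 and 103388734, had 94.7%, 96.8%, 96.9% and 91.7% and did not move. Its distal site was a single position with 0.886, 0.521, 0.545 and 2.42 RPM, and met the limit of 1 RPM through the CF Im 68 siRNA library. Both of these pairs thus entered through depleted libraries, and no conclusion on width is drawn from them. The narrowest pair, 5015 nt on the minus strand of chromosome 19 at 35758766 and 35753751, had 60.8%, 74.2%, 47.6% and 44.6% and counted as moved to the distal end.

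The 16 members that moved to the distal end after CF Im 68 depletion had a median share of 74.3% in the pooled controls. For the 41 that moved the other way it was 40.4%. The rule itself favours such a contrast, because a fall of 10 points needs a high enough share and a rise needs room above it. On chromosome 6, a minus-strand pair at 29968789 and 29960048 had shares of 89.5% in untreated cells, 87.3% with control siRNA, 72.6% after CstF-64 depletion and 54.0% after CF Im 68 depletion. Its proximal site stayed at 4.3, 4.09, 7.22 and 4.22 RPM while the distal site had 0.506, 0.595, 2.72 and 3.60 RPM. These are low levels, with 63 to 100 pair reads per library. The distal site met the limit of 1 RPM only through the depleted libraries, so its rise there was part of how the pair was chosen.

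Chromosome 4 held a minus-strand pair at 186081256 and 186072640 with 93.1% in untreated cells, 97.1% with control siRNA, 88.7% after CstF-64 depletion and 73.6% after CF Im 68 depletion. Distal RPM was 1.52, 0.744, 2.59 and 6.49 in this order. On the plus strand of chromosome 4 at 675817 and 681808 the shares were 96.4%, 96.7%, 93.4% and 81.8%. With sites chosen on the controls alone, neither of these loci nor the chromosome 6 pair was a member. Their distal ends met the limits through the depleted libraries, and the high distal share there was part of the choice. On chromosome 15, by contrast, the minus-strand pair at 35663083 and 35657987 had proximal RPM of 26.9, 14.2, 5.99 and 4.46, lower in both depleted libraries, and shares of 87.8%, 90.5%, 62.0% and 67.9%.

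**Figure D3:**
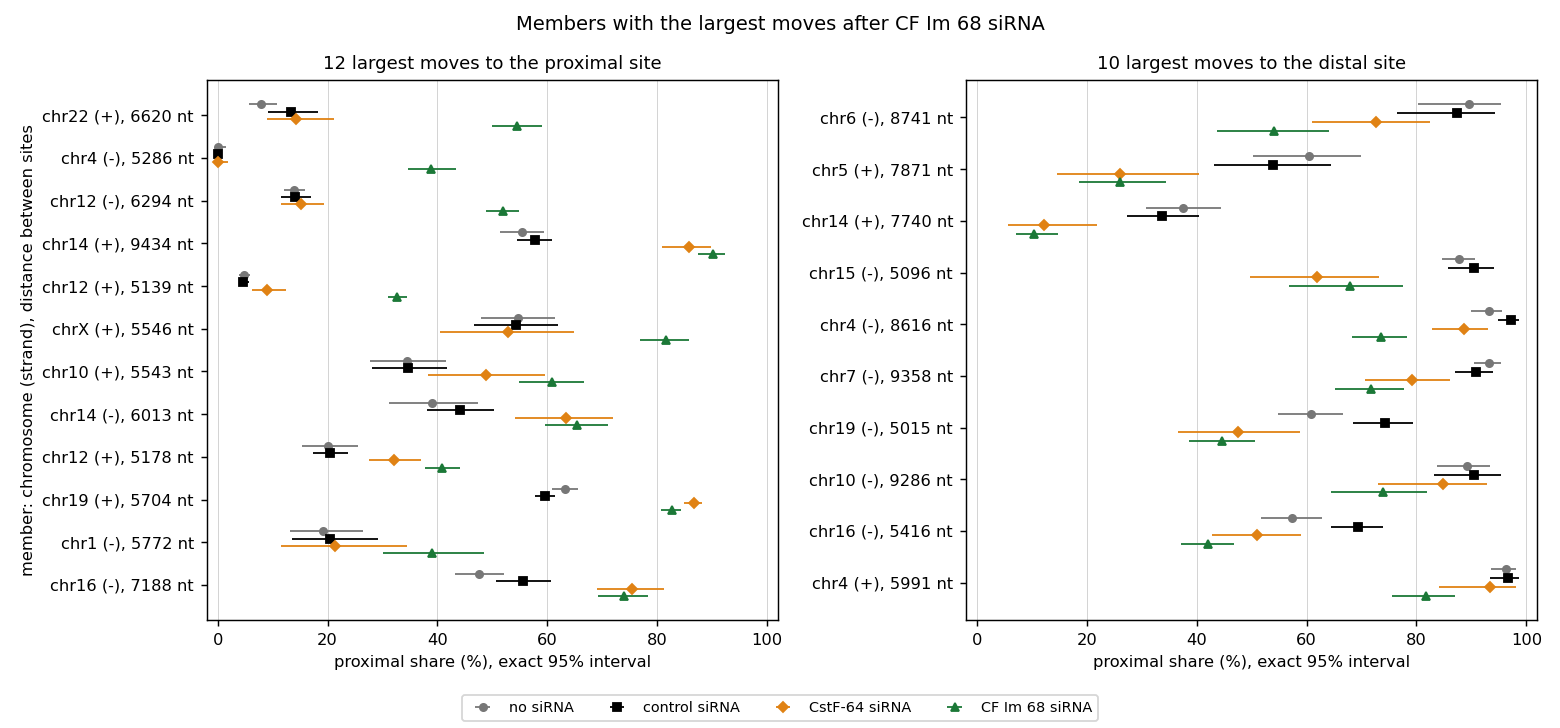
Proximal share (percent, with exact 95% intervals for counting error) in the 4 libraries for the 12 members with the largest moves to the proximal end and the 10 with the largest moves to the distal end after CF Im 68 depletion, named by chromosome, strand and distance between ends. The share after CF Im 68 depletion lies above both controls in the former and below both in the latter, and the CstF-64 siRNA share lies near the controls in some members and near the CF Im 68 siRNA share in others.

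The 2 ends were then followed separately, as RPM of each site. Of the 41 members that moved to the proximal end after CF Im 68 depletion, 23 had at least 1.5-fold more proximal RPM than in either control, by ratios of RPM + 1. In 12 others the proximal level stayed within that fold and the distal site had fallen by at least 1.5-fold against both controls, and 6 passed neither limit. Their median log2 ratio at the proximal site was 0.74 against control siRNA and 1.39 against untreated cells, and at the distal site it was -0.22 and -0.44. Of the 16 that moved to the distal end, 9 gained distal RPM by this measure and 7 lost proximal RPM, with 2 of them doing both. RPM itself shifted between libraries: over all tested loci the median log2 ratio of pair RPM was 0.10 for CF Im 68 siRNA against control siRNA and 0.21 against untreated cells, and -0.12 for CstF-64 siRNA against control siRNA. With these medians subtracted, 17 of the 41 passed the limit upward at the proximal site and 13 downward at the distal site.

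After CstF-64 depletion, 33 members (9.32%) moved to the proximal end and 24 (6.78%) to the distal end, beside 8.20% and 3.59% of all tested loci. The median change against control siRNA was 0.236 points (-0.784 to 1.02), with a larger share in 180 members and a smaller one in 173, and 1.04 points over all tested loci. Among pairs 1001 to 5000 nt apart, 74 (7.56%) moved to the proximal end and 21 (2.15%) the other way. Moves to the proximal end were thus about as frequent in the wide pairs as in the whole table, and moves to the distal end had the higher percentage in the wide pairs; that difference was not tested. The library had the fewest reads. In the 173 members in which no library had under 200 pair reads, 22 (12.7%) moved to the proximal end and 10 (5.78%) the other way, beside 8.54% and 3.83% of all tested loci at that limit.

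The components differed in count from those after CF Im 68 depletion. Of the 33 members that moved to the proximal end, 19 had distal RPM at least 1.5-fold below both controls and 6 had proximal RPM at least 1.5-fold above them, and 8 passed neither limit. Their median log2 ratios were 0.28 at the proximal and -0.90 at the distal site against control siRNA. Of the 24 that moved to the distal end, 15 had lost proximal RPM and 7 had gained distal RPM, with medians of -1.11 at the proximal and 0.27 at the distal site. With the shift of all tested loci subtracted, the counts were 19 and 6 in the former and 13 and 9 in the latter. In the CstF-64 siRNA library the moved pairs thus passed the limit downward at 1 end more often than upward at the other. Before that subtraction the 297 members that did not move leaned the same way. Of these, 35 had lost proximal RPM and 40 distal RPM, while 22 and 8 had gained it. The difference from the CF Im 68 siRNA library was not tested.

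**Figure D4:**
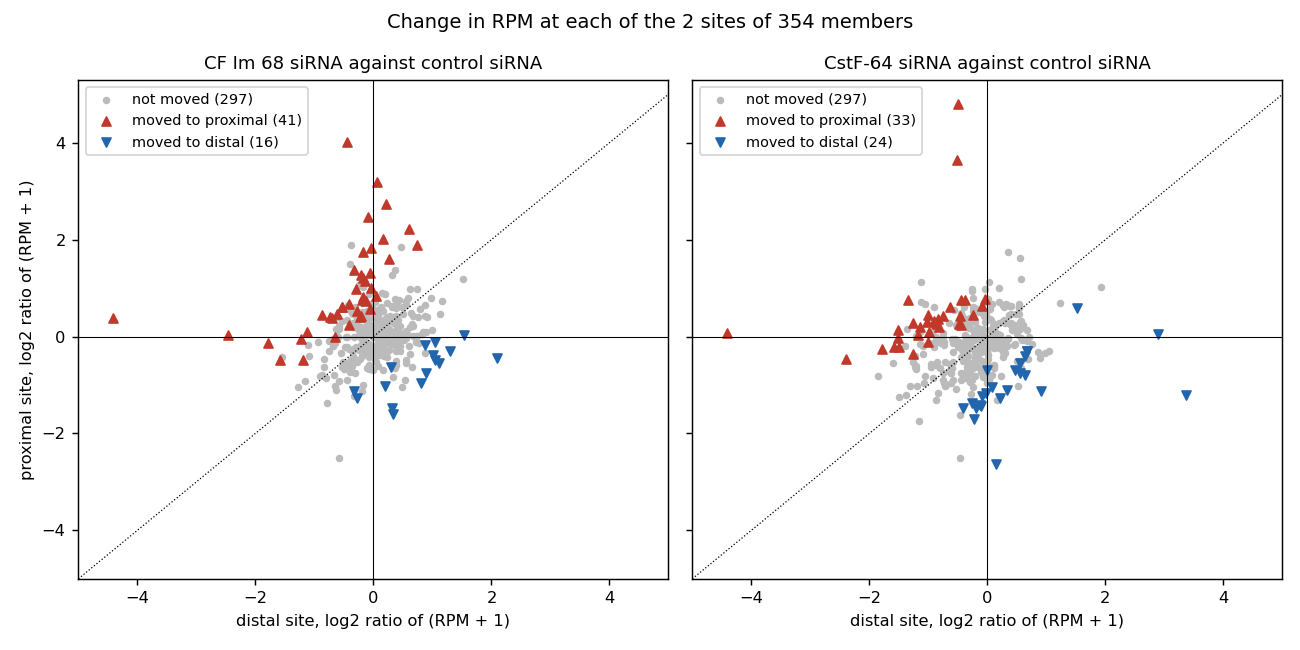
Log2 ratio of RPM + 1 against control siRNA at the proximal site (vertical axes) and at the distal site (horizontal axes) for the 354 members, 1 point per member, with the dotted line marking equal ratios at both ends. Members that moved to the proximal end had a median of 0.74 at the proximal end after CF Im 68 depletion, and after CstF-64 depletion a median of -0.90 at the distal end.

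The pair with the largest move to the distal end after CstF-64 depletion lay on the plus strand of chromosome 1, at 28285663 and 28294605. Its proximal share was 61.3% in untreated cells, 52.3% with control siRNA, 9.93% (5.54 to 16.1%) after CstF-64 depletion and 42.3% after CF Im 68 depletion (adjusted p = 2.38e-19 for CstF-64 against control siRNA, Fisher's exact test). Proximal RPM was 14.2, 17.1, 1.91 and 15.9, and distal RPM was 8.98, 15.6, 17.3 and 21.7. The proximal end was low in the CstF-64 siRNA library alone, while the distal end was near its level with control siRNA and above that in untreated cells.

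A deeply read plus-strand pair on chromosome 17, at 40718295 and 40723849, had 76.4% in untreated cells, 76.7% with control siRNA, 54.7% (52.3 to 57.1%) after CstF-64 depletion and 72.7% after CF Im 68 depletion (adjusted p = 9.49e-61 for CstF-64 against control siRNA, Fisher's exact test). Its pair reads were 7237, 4773, 1694 and 4374, and the controls differed by less than 1 point. Proximal RPM was 350, 272, 126 and 248, and distal RPM was 108, 82.6, 105 and 93.5. Here too the low level was at the proximal end. On the X chromosome the plus-strand pair at 128726529 and 128732488 had shares of 92.1%, 90.6%, 70.6% and 88.7%, from 51 pair reads in the CstF-64 siRNA library, and was no member with sites chosen on the controls alone.

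Toward the proximal site, the minus-strand pair on chromosome 22 at 30687980 and 30681106 had shares of 53.1% in untreated cells, 60.1% with control siRNA, 84.6% after CstF-64 depletion and 65.1% after CF Im 68 depletion. Its distal RPM was 3.86, 4.24, 1.36 and 3.52, lowest in the CstF-64 siRNA library. Shares of the minus-strand pair on chromosome 19 at 38055162 and 38045684 were 19.5%, 31.2%, 52.9% and 29.1%, and the plus-strand pair on chromosome 1 at 27182208 and 27190948 had 19.6%, 27.2%, 48.1% and 37.8%. In these last loci the controls themselves lay several points apart.

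Several large calls rested on sites seen in 1 library, which entered through that library and were chosen by it. On the minus strand of chromosome 4, a proximal site at 170986660 was a single position with 194 reads, all of them after CF Im 68 depletion, and gave a share of 38.9% beside its distal site at 170981374. The other libraries had 0 reads there, which allows shares of up to 1.30% in untreated cells, 0.682% with control siRNA and 1.62% after CstF-64 depletion. By the smaller of the changes against the controls, the largest move of all after CstF-64 depletion was of this kind: a plus-strand proximal site at 170172891 on chromosome 6 had 198 reads at 1 position in that library, a share of 55.9%, and 0 in every other. Likewise the minus-strand site at 15612435 on chromosome 4 had 84 reads at 1 position and 0 in the other libraries. Among the moves to the distal end, the plus-strand distal site at 10697891 on chromosome 1 had 47 reads at 1 position, all in the CstF-64 siRNA library. The minus-strand distal site at 64582415 on chromosome 11, also 1 position, was by contrast not limited to 1 library. It had 57 reads in untreated cells and 68 after CstF-64 depletion, and 0 in the other libraries. Its pair remained a member with sites chosen on the controls alone. In all, 16 members had an end at which at least 99% of reads fell on 1 position or in 1 library. Without them, 39 and 15 of 338 members moved after CF Im 68 depletion and 30 and 22 after CstF-64 depletion. Whether such positions are copies of few fragments was not tested.

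**Figure D5:**
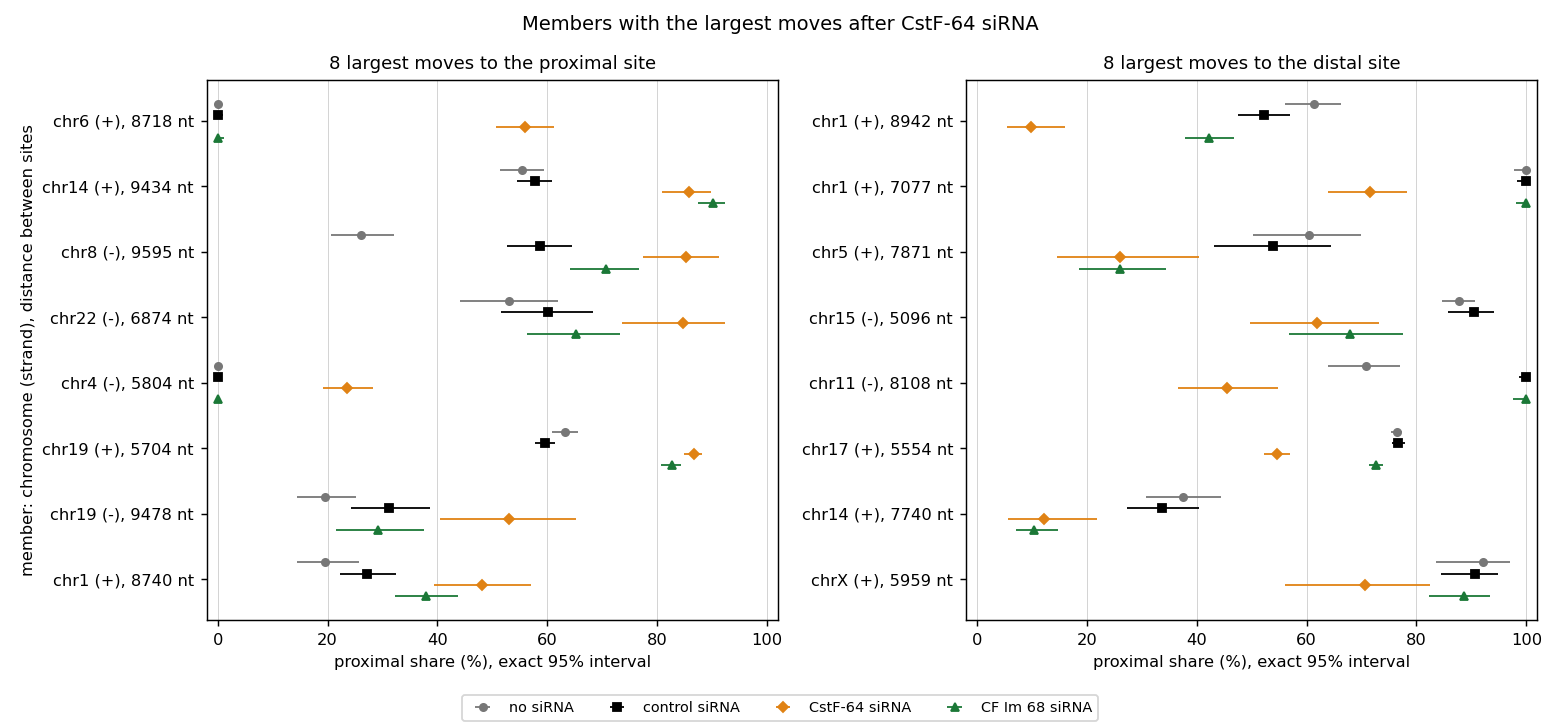
Proximal share (percent, with exact 95% intervals for counting error) in the 4 libraries for the 8 members with the largest moves to the proximal end and the 8 with the largest moves to the distal end after CstF-64 depletion, named by chromosome, strand and distance between ends. The CstF-64 siRNA share lies outside both controls in each; the pair on chromosome 1 with ends 8942 nt apart fell to 9.93%.

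Both depleted libraries were also set side by side. The comparisons with control siRNA share that library, and the change of each depletion is therefore given per member. The plus-strand pair on chromosome 14 at 105937065 and 105946499 had shares of 55.4% in untreated cells, 57.7% with control siRNA, 85.7% after CstF-64 depletion and 90.1% after CF Im 68 depletion. Distal RPM was 17.4, 29.9, 4.90 and 4.61, low in both depleted libraries. On the minus strand of chromosome 16, the pair at 779771 and 772583 had 47.6%, 55.6%, 75.5% and 74.0%.

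In the distal direction, the plus-strand pair on chromosome 14 at 75295129 and 75302869 had 37.4% in untreated cells, 33.7% with control siRNA, 12.2% after CstF-64 depletion and 10.4% after CF Im 68 depletion. The minus-strand pair on the X chromosome at 107972538 and 107963177, with 1578 to 4457 pair reads, had 33.8%, 25.7%, 13.9% and 14.6%. Each of these loci had both depleted libraries on 1 side of both controls. With a separate control for each depletion, 55 members (15.5%) had a larger share after CF Im 68 depletion than with control siRNA. This held for 30.6% of all tested loci. After CstF-64 depletion, 71 members (20.1%) had a larger share than in untreated cells, beside 19.0% of all tested loci. The 23 in both lists were 41.8% of the former and 32.4% of the latter, and 7 of the 55 had a smaller share after CstF-64 depletion. With the controls exchanged, 72 members (20.3%, beside 35.0% of all tested loci) and 46 (13.0%, beside 10.6%) had a larger share. The 21 in both were 29.2% and 45.7% of the lists. For smaller shares the lists had 28 members (7.91%, beside 4.32% of all tested loci) and 52 (14.7%, beside 13.4%). The 9 in both were 32.1% and 17.3% of the lists. With the controls exchanged they had 46 (13.0%, beside 8.89%) and 29 (8.19%, beside 5.28%), with 14 in both, 30.4% and 48.3% of them. These overlaps were counted in the members only, and whether they differ from those of all tested loci was not tested.

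Some pairs had shares on opposite sides of the controls in the 2 depleted libraries, but neither pair given here moved after both depletions by the rule. The minus-strand pair on chromosome 11 at 62392304 and 62382769 had shares of 61.5% in untreated cells, 52.7% with control siRNA, 33.9% after CstF-64 depletion and 70.4% after CF Im 68 depletion, over 1660 to 4552 pair reads (adjusted p = 3.51e-145 between the depleted libraries, Fisher's exact test). Proximal RPM was 151, 158, 76.7 and 251, so the proximal end was low in the former and high in the latter depletion. Its share after CF Im 68 depletion lay 8.96 points above that in untreated cells, short of the 10 points of the rule for a move. A second such pair, on the X chromosome (minus strand) at 10557937 and 10551624, had 36.2%, 30.2%, 18.9% and 49.4%. It counted as moved after CF Im 68 depletion only. Its change of -11.3 points after CstF-64 depletion against control siRNA did not pass (adjusted p = 0.0946, Fisher's exact test). Between the depleted libraries directly, the share was larger after CF Im 68 depletion in 39 members (24.9% of all tested loci) and smaller in 32 (5.05%). The median difference was 0.0296 points (-0.970 to 0.784), beside 3.69 points over all tested loci.

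The most read wide pairs show what the controls allow. The plus-strand pair on chromosome 17 at 49239396 and 49249105, with 22848 to 37510 pair reads, had 45.4% in untreated cells, 33.1% with control siRNA, 30.1% after CstF-64 depletion and 43.5% after CF Im 68 depletion. Its share after CF Im 68 depletion was thus above control siRNA but level with the library of untreated cells, and it was not called moved. At 4848952 and 4840608 on chromosome 17 (minus strand) the shares were 39.2%, 54.2%, 55.6% and 55.5%, with the library of untreated cells alone low. The plus-strand pair on chromosome 16 at 767479 and 772590 did pass both controls, with 77.0%, 80.4%, 65.2% and 63.7%. Its distal end lies beside the minus-strand end at 772583 of the chromosome 16 pair given above. On chromosome 19, the minus-strand pair at 35994207 and 35988123 had 46.5%, 63.6%, 78.8% and 71.8%. It counted as moved after CstF-64 depletion, but its controls lay farther apart than control siRNA and either depletion.

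As a measure of transcript end position, the read-weighted mean distance of a pair's reads from its proximal site was computed. Its median over members was 3712 nt in untreated cells, 3714 nt with control siRNA, 3588 nt after CstF-64 depletion and 3241 nt after CF Im 68 depletion. Taken per member, however, the median change was only -38.9 nt for CF Im 68 siRNA against control siRNA (quartiles -448 and 258 nt), beside -40.0 nt between the controls. The end lay at least 500 nt nearer after CF Im 68 depletion than with control siRNA in 82 members and at least 500 nt farther in 54. For CstF-64 siRNA the counts were 76 and 60, and between the controls 73 were nearer with control siRNA and 65 farther. The 41 members that moved to the proximal end after CF Im 68 depletion had a median change of -1218 nt against control siRNA, and the 16 that moved to the distal end had one of 1319 nt.

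Total output of the pairs and reads between the ends were compared last. The median log2 ratio of pair RPM in the members was 0.06 for CF Im 68 siRNA and -0.18 for CstF-64 siRNA against control siRNA, and 0.22 for control siRNA against untreated cells. At least 2-fold more pair RPM than in both controls was seen in 4 members after CF Im 68 depletion and in 2 after CstF-64 depletion, and at least 2-fold less in 5 and 11. Reads between the ends made up 1.83% of span reads in untreated cells, 1.96% with control siRNA, 1.73% after CstF-64 depletion and 2.30% after CF Im 68 depletion, with the reads of all members added up. Their percentage was above both controls in 136 members and below both in 103 after CF Im 68 depletion, and in 92 and 138 after CstF-64 depletion. All these counts were made in the members only, with no share of all tested loci beside them, and the differences were not tested.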

How the data were processed

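Counts of A-seq reads at each cleavage position and strand were used as deposited by the authors for 4 libraries, 1 per group. Positions refer to the hg19 build named per the submitters' processing notes, and count from 1. The aligner and the treatment of multiple matches and PCR duplicates are not given in the sources used here. RPM, clustering, loci and pairs were computed from these counts as described in the report, with Python 3.11.15, numpy 2.4.6, pandas 2.3.3, scipy 1.17.1 and numba 0.67.0, and figures with matplotlib 3.10.9. Reads primed within A-rich stretches were not separated from true ends.

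Pair reads were compared by two-sided Fisher's exact tests with Benjamini-Hochberg adjustment over all 4793 tested loci, and the script was tested on simulated data. Apart from the changes put in, the simulated libraries differed by counting error alone. That check therefore does not cover differences between libraries such as those between the controls. Log2 ratios of RPM used a pseudocount of 1. The depleted libraries took part in choosing sites, so a site could enter through its rise there. Named members were those with the largest moves by the smaller of the changes against the controls (12 proximal and 10 distal for CF Im 68, 8 and 8 for CstF-64), those moved after both depletions (up to 8 per direction) and 5 each by read number, largest and smallest distance, control difference, smallest range and opposite changes. The text gives examples of each. The members and lists were chosen with earlier results of these data known. Alternatives changed the site choice, clustering distance, read minimum, depth, site share, change minimum and control. Steps that need an hg19 genome or gene annotation were not run.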

Additional observations from a re-analysis of the deposited data

How the results depend on the processing

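No paired analysis was possible because each group was 1 library, and no result has a replicate check. With at least 20 points, 9 members moved to the proximal end and 3 the other way after CF Im 68 depletion, and 9 and 7 after CstF-64 depletion. No share of all tested loci is available at that limit, so these counts cannot be set against the whole table. With no siRNA as the only control the counts were 72 and 46 for CF Im 68 siRNA (20.3 and 13.0%), beside 35.0 and 8.89% of all tested loci. For CstF-64 siRNA they were 71 and 52 (20.1 and 14.7%), beside 19.0 and 13.4%. The median changes were 1.61 and 1.21 points. With control siRNA alone, 28 (7.91%) moved to the distal end after CF Im 68 depletion, beside 4.32% of all tested loci. With at least 200 pair reads (173 members), 18 and 3 moved after CF Im 68 depletion, beside 21.5 and 1.80% of all tested loci. After CstF-64 depletion 10 moved to the distal end, beside 3.83%. Without a further site between the ends the counts were 14 and 7 after CF Im 68 depletion and 17 and 14 after CstF-64 depletion. They were 7.65, 3.83, 9.29 and 7.65% of these members, beside 24.2, 2.63, 8.20 and 3.59% of all tested loci. Sites of at least 10% gave 66 moves to the proximal end after CF Im 68 depletion (19.2%, beside 27.3% of all tested loci). The medians were then 2.11 and 1.03 points. The limits on reads, further sites and site share change which members are counted, and other causes were not tested. Without a further site between the ends, the CstF-64 median was -0.0386 points, and with 200 reads the medians were 1.08 points for CF Im 68 and 0.647 for CstF-64. With clustering within 10 nt they were 0.287 and 0.534 points.

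Other settings are given as counts for CF Im 68 proximal and distal and then CstF-64 proximal and distal, and stayed within 1.5 times the reported counts. Sites chosen on the controls alone gave 36, 12, 31 and 22 moves of 344 members, beside 20.4, 2.58, 8.44 and 3.78% of all tested loci. Clustering within 10 nt gave 34, 13, 32 and 20 of 295, beside 21.6, 2.87, 7.82 and 4.03%. Thinning to the smallest library gave 33, 12, 31 and 20 of 325, beside 22.8, 2.48, 7.69 and 3.59%. No named change that could be recomputed turned its direction, but several loci were then no longer members. With 200 reads this held for 16 of the 22 named CF Im 68 changes and 11 of the 16 named CstF-64 changes, and with sites chosen on the controls for 6 and 4. Thinning removed the pairs at 29968789 on chromosome 6 and 668860 on chromosome 5 for CF Im 68, and at 668860 and 128726529 (X chromosome) for CstF-64. It ended 3 further calls: the minus-strand pairs at 18834491 on chromosome 10 and 67696852 on chromosome 16 after CF Im 68 depletion, and at 38055162 on chromosome 19 after CstF-64 depletion. At 50 pair reads the 35.5 to 64.5% interval of an even share is wider than the 10 points asked for, so small moves were not detectable there.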
